A study of Mus musculus with 19 samples.

Results

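The comparison described here is the effect of U0126 on NIH3T3 cells after 7 h of fibroblast growth factor. NIH3T3 is an established line of mouse fibroblasts, and U0126 is a small-molecule inhibitor of MEK. Cells given FGF for 7 h with U0126 added at -0.5 h (2 arrays, experiments 1 and 2) were set against cells given FGF for 7 h alone (2 arrays, experiments 1 and 2). They are called U0126-treated and FGF-only cells below. Quiescent cells, which had been kept 48 h in 0.1% serum and received neither agent, gave 3 arrays (1a and 1b of experiment 1, averaged before testing, and 1 of experiment 2). All groups shared that serum starvation. FGF was basic FGF at 50 ng/ml, and U0126 was used at 20 µM. These 7 arrays are part of a series of 19, which also holds FGF with and without U0126 at 1, 4 and 12 h and 2 arms that received U0126 later. The members were all 14996 genes that passed a filter on low signals. The filter asked for a signal above the array's 40th percentile on at least 2 of the 19 arrays. A gene could therefore pass through only those arrays where it was high. No arm received U0126 without FGF, no FGF-free cells were measured at 7 h, and the vehicle was not given in the sources used here. The labels do not say that the replicates were separate cultures, so p-values measure only the spread between these arrays, which may be technical.

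FGF binds receptor tyrosine kinases at the cell surface, and the receptors pass the signal through Ras and Raf to MEK, which phosphorylates and activates ERK. Active ERK phosphorylates transcription factors of the ETS family and others, which induce immediate-early genes, then cyclins, and then the genes of DNA replication as fibroblasts leave quiescence. The pathway also induces its own brakes, among them the dual-specificity phosphatases and the Sprouty and Spred proteins. U0126 binds MEK1 and MEK2 and is known to act on MEK5 as well.

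Values are array signals on a linear scale, set by the authors so that the mean of each array without its highest and lowest 2% was 500. A probe set's signal can be compared between arrays and not with that of another gene. The 19 arrays had median signals between 60.2 and 88.3, and the 2 replicates of a group correlated across probe sets with r = 0.972 in U0126-treated cells and r = 0.963 in FGF-only cells. The number of arrays limits the precision. Fibroblast markers had a summed signal over 12 genes of 154427 and 158146 in U0126-treated cells and 171465 and 195413 in FGF-only cells. Among them lumican was dim, with signals of 3.3 and 31.9 and 18.8 and 59.4 in the same groups. Summed macrophage markers (7 genes) lay at 1395 and 1374 in U0126-treated cells against 1733 and 1769 in FGF-only cells, and endothelial (6 genes) and muscle (5 genes) markers summed to 402 or less on every 7 h array. No macrophage, endothelial or muscle marker passed. Epithelial markers (8 genes) summed to 2258 and 2615 in U0126-treated cells against 1076.5 and 1317.5 in FGF-only cells. Adipocyte markers (4 genes) summed to 22059 and 17088 against 8681 and 8929. In each of these 2 lists 1 marker passed, as higher. Sums can be set side by side between arrays and not between lists. In bulk RNA, fewer cells of a type and less RNA per cell cannot be told apart.

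U0126-treated and FGF-only cells differed in 1882 of 14996 genes (12.6%), with limma at an adjusted p under 0.05 and the experiment number as a block. Of these, 938 were higher (6.26%) and 944 lower (6.3%) in U0126-treated cells. These 2 shares are the background for each count of list members given below. Larger changes were fewer, with 236 genes more than 2-fold higher and 269 more than 2-fold lower. The median difference over all genes was -0.04 on the log2 scale. Folds and log2 differences refer to signal + 13.6, which understates changes of dim genes, and each log2 difference is given ± its SE. All 1882 genes moved the same way in both experiments. With 2 arrays per group a call favours this, and it favours arrays that do not overlap. Neither is therefore separate support for a called gene, here or below. Without the block 913 genes passed, and without FGF-only replicate 2 or U0126-treated replicate 2 the counts were 1153 and 1155.

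**Figure D1:**
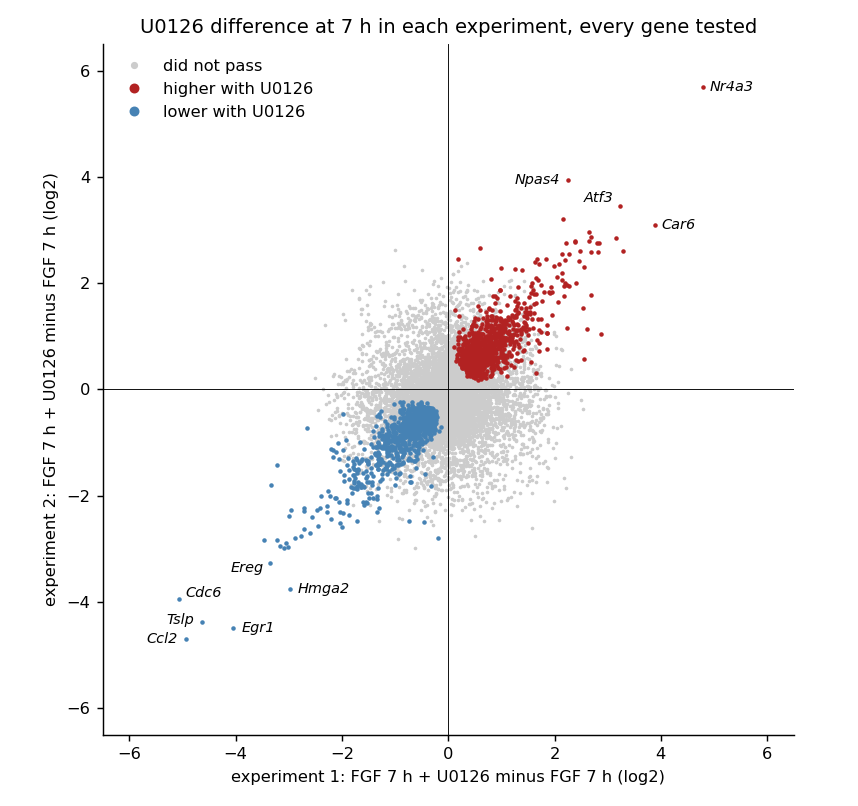
Log2 difference between U0126-treated and FGF-only cells at 7 h in experiment 1 (x axis) and experiment 2 (y axis) for every gene tested, on the log2(signal + 13.6) scale. Each point is a gene, with called genes coloured by direction. Called genes lie in the upper right and lower left, with Ccl2 (-4.82), Tslp and Cdc6 at the lower end and Nr4a3 (5.24) at the upper end.

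Several brakes of the ERK pathway, ETS factors and ligands that the pathway is known to induce were lower in U0126-treated cells. Of 17 ERK feedback inhibitors tested, 6 fell, 2 rose and the median difference was -0.72. Dusp6, a cytoplasmic phosphatase that inactivates ERK, had signals of 1317 and 1529 in U0126-treated cells against 7396 and 7422 in FGF-only cells (log2 difference -2.37 ± 0.14, limma adjusted p = 2.0e-09). Dusp4, a nuclear phosphatase of the same family, had 236 and 217 against 653 and 944 (-1.74 ± 0.24, limma adjusted p = 4.8e-05). For both phosphatases the groups did not overlap. U0126-treated cells lay 1.1-fold above quiescent cells for Dusp6 and 2.43-fold above them for Dusp4. Errfi1, an inhibitor of the EGF receptor, had 1160 and 1189.7 in U0126-treated cells against 4084 and 4639 in FGF-only cells (-1.88 ± 0.13). Spred1, which holds back Ras and Raf, differed by -1.22 ± 0.13, but its probe set of highest variance gave -1.25 with an adjusted p of 0.41. With that choice of probe set throughout, 3 members of the list fell.

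Other brakes rose or missed the limit. Dusp8, a phosphatase of the stress kinases JNK and p38, went the other way with 399 and 552 in U0126-treated cells against 78.8 and 47.6 in FGF-only cells (2.68 ± 0.39, limma adjusted p = 9.1e-05). Dusp10 was the other member that rose (0.67). Dusp5, a nuclear ERK phosphatase, had 119 and 205 against 317 and 501 and did not pass (-1.28 ± 0.48, adjusted p = 0.0969). With an offset of 45.2 Dusp5 did pass (-1.13, adjusted p = 0.0414), as it did when the compared groups were fitted alone, and it was lower with U0126 at 4 h (-2.12) and 12 h (-2.46). The difference did not pass for Spry4 (-0.80 ± 0.36) or Spry2 (-0.43 ± 0.18) either, although both encode Sprouty proteins.

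Among 12 ETS factors tested, 3 fell and 1 rose, against 6.3% and 6.26% of all genes. Etv5, of the PEA3 group, had 239 and 222 in U0126-treated cells against 1859 and 1629.9 in FGF-only cells (-2.85 ± 0.19, limma adjusted p = 1.7e-08), which left U0126-treated cells 7.2-fold lower. Elk3, a ternary complex factor, was lower by a smaller amount (-0.86 ± 0.12), with 1851 and 2228 against 3867 and 3558. Ets2, a direct ERK substrate, was higher, with 2235 and 2442 in U0126-treated cells against 806 and 880.4 in FGF-only cells (1.46 ± 0.15). The Ets2 difference fell to 1.06 with an adjusted p of 0.066 for its probe set of highest variance. Etv6, the remaining member that passed, had an adjusted p of 0.301 without U0126-treated replicate 2, 0.241 without FGF-only replicate 2 and 0.148 without the block. Etv4 did not pass (-0.78 ± 0.56, adjusted p = 0.44), but another of its probe sets, that of highest variance, gave -2.27 with an adjusted p of 0.0143.

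Several growth factors were lower, 3 of them of the EGF family. Of 20 growth factors tested, 5 fell and 3 rose, and the 3 that rose were Pdgfa (0.57), Gdnf (0.79) and Vegfa (0.89). Without U0126-treated replicate 2, 1 rose. Ereg (epiregulin), a ligand of the EGF receptor, had 795 and 735 in U0126-treated cells against 8251 and 7153 in FGF-only cells and 711, 491 and 646 in quiescent cells. U0126-treated cells were 9.89-fold lower than FGF-only cells (-3.31 ± 0.15, limma adjusted p = 1.3e-10), with no overlap between the groups. Btc (betacellulin), another such ligand, had 43.9 and 74.5 against 151 and 325 (-1.73 ± 0.28). Hbegf, the heparin-binding member, had 792 and 746 against 1349 and 1899 (-1.04 ± 0.18). Its U0126-treated level was 2.89-fold above that of quiescent cells. Csf1, the growth factor of macrophages, was also lower, at 2522 and 2259 against 4802 and 4438 (-0.95 ± 0.12).

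Receptor tyrosine kinases fell in 6 of 22 tested genes and rose in 1, against 6.3% and 6.26% of all genes. The 1 that rose was Ddr1, a collagen receptor (1.03). It was not called without the block or without FGF-only replicate 1, FGF-only replicate 2 or U0126-treated replicate 2. Epha2, an ephrin receptor, had 521 and 638 in U0126-treated cells against 1246 and 1853 in FGF-only cells (-1.38 ± 0.17, limma adjusted p = 1.5e-05). Both PDGF receptors, which mark fibroblasts, were lower. Pdgfra had 2482 and 3247 against 7469 and 7121 (-1.36 ± 0.14), and Pdgfrb had 1834 and 2087 against 3829.5 and 3483 (-0.90 ± 0.16). They were the 2 of 12 fibroblast markers that passed. Igf1r, the IGF1 receptor, differed by -0.96 ± 0.12 with the block, and its adjusted p was 0.0553 without it.

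Several chemokine and cytokine genes were lower in U0126-treated cells. Of 13 genes tested of a list of chemokines, cytokines and other inflammatory genes, 7 fell and 2 rose, with a median of -0.82. Ccl2, a chemokine that draws monocytes, had 139 and 158 in U0126-treated cells, 4640.1 and 4465 in FGF-only cells and 399, 671 and 646 in quiescent cells. U0126-treated cells were therefore 28.2-fold lower than FGF-only cells (-4.82 ± 0.20, limma adjusted p = 9.5e-11), and they lay below the quiescent level as well (-1.87 ± 0.20, limma adjusted p = 3.1e-06). Ccl7, its neighbour in the same chemokine cluster, had 353 and 379.8 against 3120.5 and 3100.4 (-3.04 ± 0.19). Tslp, a cytokine of epithelial and stromal cells, had 22.1 and 25.4 against 874 and 802 (-4.51 ± 0.29). Ccl2 had the largest fall of all genes tested with the offset of 13.6, and with an offset of 1 those of Cdc6 and Tslp were larger. The U0126-treated mean of Tslp lay below 45.2, the 40th percentile of all signals, so the size of that fold is uncertain. Nfkbia, the inhibitor of NF-κB that NF-κB itself induces, was lower at 4230 and 4811 against 7665 and 8212 (-0.81 ± 0.12).

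Il6, a cytokine of the acute-phase response, went against that direction with 98.1 and 159 in U0126-treated cells against 2.4 and 12.1 in FGF-only cells (2.78 ± 0.51, limma adjusted p = 0.00106). The FGF-only mean of Il6 lay below 45.2. Ptgs2, the inducible cyclooxygenase, was the other member that rose (0.89 ± 0.19), and its call was lost without FGF-only replicate 2 (0.65, adjusted p 0.0891) and without U0126-treated replicate 1 (0.66, adjusted p 0.0666).

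Immediate-early genes split into a group that was lower and a group that was higher in U0126-treated cells. Of 22 such genes outside AP-1, 7 fell and 9 rose, and without the block 6 fell and 5 rose. The EGR zinc-finger factors were in the first group. Egr1 had 73.9 and 81.3 in U0126-treated cells, 1430 and 2108 in FGF-only cells and 2889, 6135 and 8039 in quiescent cells. U0126-treated cells were 19.2-fold lower than FGF-only cells (-4.26 ± 0.21, limma adjusted p = 5.6e-10). Egr2 had 57.9 and 73.5 against 319 and 338 (-2.12 ± 0.31), and Egr3 had 175 and 149 against 908 and 793 (-2.30 ± 0.17). All 3 were low on both U0126-treated arrays. Myc, which drives growth genes, was slightly lower at 2607 and 3046 against 4259 and 4203 (-0.58 ± 0.13), and its adjusted p was 0.0644 without FGF-only replicate 1.

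The NR4A orphan nuclear receptors were the opposite case. Nr4a3 had 1407 and 1155 in U0126-treated cells against 37.8 and 9 in FGF-only cells and 135, 10.4 and 81.8 in quiescent cells. This was the largest rise among the 14996 genes (5.24 ± 0.46, limma adjusted p = 2.9e-07), though the FGF-only mean lay below 45.2. On the single arrays at 1 h the order was the other way, with 547 in cells with U0126 against 3685 in cells with FGF alone, and no test was made there. Nr4a1 had 2085 and 2944 against 312 and 392 (2.78 ± 0.22). Npas4, best known as an activity-dependent transcription factor of neurons, had 129 and 247 against 16.3 and 3.4 (3.10 ± 0.45), again from an FGF-only mean below 45.2.

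AP-1 subunits did not move together. Of 9 tested, 3 rose and 1 fell. Atf3, a stress-induced partner of AP-1, had 732 and 796 in U0126-treated cells against 66.1 and 60.7 in FGF-only cells (3.34 ± 0.21, limma adjusted p = 7.1e-09). Jund, the subunit linked to resting fibroblasts, had 7396 and 7565 against 1249 and 1520.1 (2.43 ± 0.19). Fosl1 (Fra-1), a subunit sustained by ERK signalling, was lower, with 1814 and 1102 against 3935 and 2855 (-1.24 ± 0.19). Its U0126-treated level was 4.28-fold above that of quiescent cells. Fosl2 rose by a smaller amount (0.61 ± 0.13), with an adjusted p of 0.0544 without FGF-only replicate 2 and 0.0516 without U0126-treated replicate 1. Fos had 70.6 and 96 in U0126-treated cells, 106 and 97 in FGF-only cells and 204, 565 and 1298 in quiescent cells. The 7 h groups did not differ by the test (-0.26 ± 0.36, adjusted p = 0.727), and the quiescent arrays were spread widely.

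**Figure D2:**
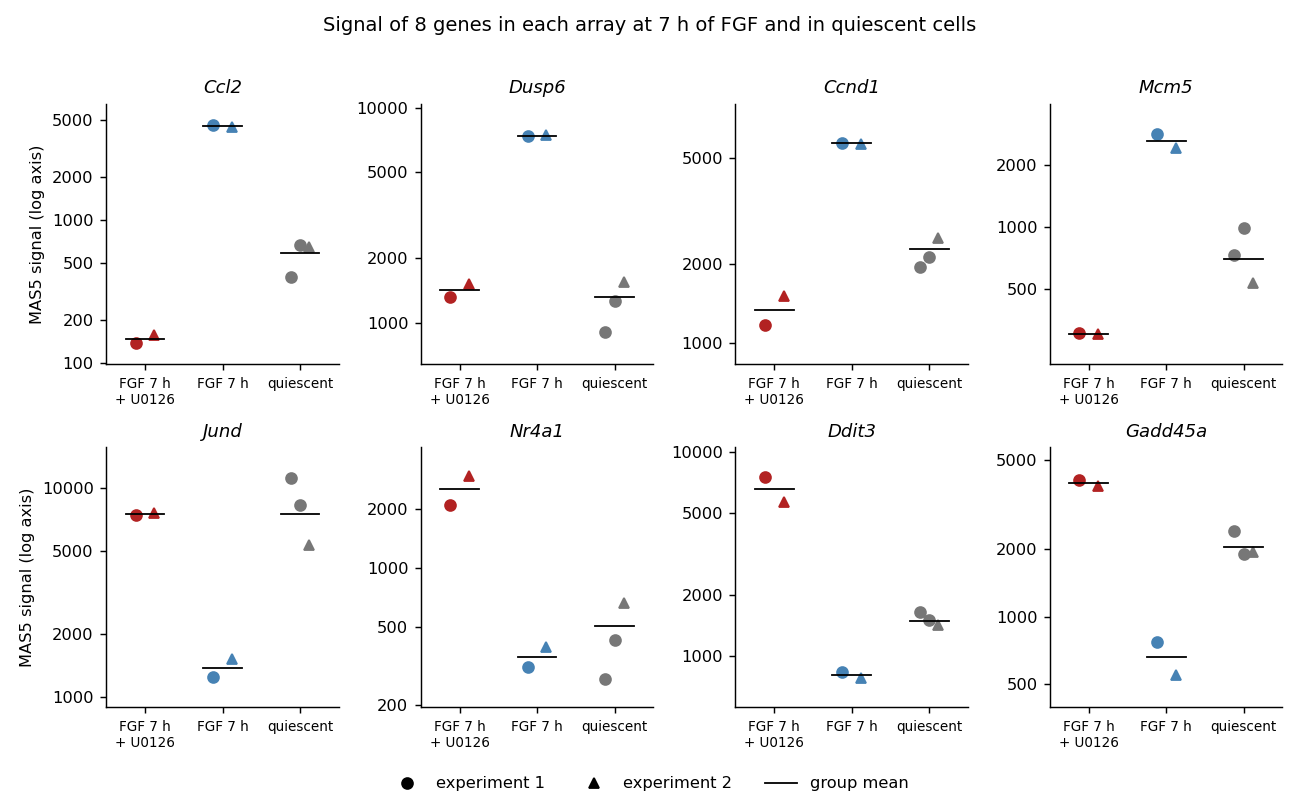
Signal on each array (log y axis) for 8 genes, in U0126-treated cells at 7 h, FGF-only cells at 7 h and quiescent cells, from left to right in each panel. Circles are arrays of experiment 1, triangles those of experiment 2 and lines group means, with the 2 quiescent arrays of experiment 1 averaged first. Ccl2, Dusp6, Ccnd1 and Mcm5 are lower, and Jund, Nr4a1, Ddit3 and Gadd45a higher, on both U0126-treated arrays than on both FGF-only arrays.

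Many genes that carry cells from G1 into S phase were lower in U0126-treated cells, and so were most replication genes. Of 15 G1 cyclins, kinases and their regulators, 8 fell. The count was 5 or 6 when any 1 of the 4 arrays was left out, and 4 without the block. The 1 that rose was Rb1 (0.63), not called without the block or without FGF-only replicate 1, FGF-only replicate 2 or U0126-treated replicate 2. Ccnd1 (cyclin D1), the G1 cyclin induced by ERK, had 1172 and 1504 in U0126-treated cells against 5714 and 5664 in FGF-only cells and 1939.7, 2111 and 2502 in quiescent cells. U0126-treated cells were 4.25-fold lower than FGF-only cells (-2.09 ± 0.14, limma adjusted p = 1.4e-08) and lay below quiescent cells as well (-0.76 ± 0.14, limma adjusted p = 8.4e-04). Ccne2 (cyclin E2), which activates CDK2 at the entry to S phase, had 106 and 125.8 against 479 and 393 (-1.80 ± 0.29). Rbl1 (p107), a pocket protein of the retinoblastoma family, had 354 and 434 against 846 and 818 (-1.06 ± 0.18). Cdk6, a partner of cyclin D, differed by -0.82 ± 0.13, with an adjusted p of 0.0574 without the block. Ccne1 (cyclin E1) passed only narrowly (-0.86 ± 0.27, adjusted p = 0.0431) and lost its call with each of the 4 arrays left out, at adjusted p from 0.0664 to 0.285.

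Of 43 genes of DNA replication and nucleotide synthesis, 34 fell and 0 rose in U0126-treated cells, with a median of -1.15. Without the block 28 fell. Cdc6, which loads the replicative helicase onto origins, had 4.8 and 21.4 in U0126-treated cells, 603 and 524 in FGF-only cells and 74.9, 109.6 and 75.8 in quiescent cells (-4.50 ± 0.39, limma adjusted p = 2.8e-07). The U0126-treated signals of Cdc6 lay below 45.2. The helicase subunits themselves followed. Mcm5 had 304 and 302 in U0126-treated cells against 2832 and 2429.7 in FGF-only cells (-3.06 ± 0.16). Mcm3 had 410.3 and 325 against 1693 and 2034 (-2.30 ± 0.16). For both, every U0126-treated array lay below every FGF-only array. The differences of the other named subunits were -2.51 for Mcm6, -1.76 for Mcm7 and -1.74 for Mcm4. Uhrf1, which copies DNA methylation marks at the fork, had 82.2 and 105 against 782 and 869 (-2.98 ± 0.22). Dnmt1, its partner methyltransferase, had 374 and 573 against 791 and 1226 (-1.07 ± 0.17). Tk1, the S-phase thymidine kinase, had 106 and 65.1 against 423 and 391 (-2.12 ± 0.24), and Gins1, a subunit of the moving helicase, had 83.4 and 66.5 against 389 and 336 (-2.09 ± 0.25).

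Many replication genes are known to be driven by E2F, so the promoter windows of these genes were read for the letters GCGGGAA on both strands, a core of the E2F site. RefSeq windows on GRCm38.p6, from 250 bases before to 50 after the transcript start, were at hand for 11977 of the 14996 tested genes. The letters stood in 14 of 35 windows of the replication list (40%), in 14.4% of the windows of genes called lower, in 6.61% of those called higher and in 7.65% of all. The ETS core CCGGAA stood in the same number of windows of the replication list, 14 of 35 (40%), and in 26.4%, 25% and 24.6% of the last 3 sets. The AP-1 site TGANTCA stood in 0 of the 35 and in 4.8%, 5.57% and 5.7% of those sets, and the E-box CACGTG in 4 of the 35 (11.4%) and in 7.73%, 13.1% and 9.54%. GCGGGAA contains none of these motifs, though neighbouring sites can share bases. A match is a description of the letters and not of binding. Among the genes described above, the windows of Mcm5, Mcm6, Tk1 and Dnmt1 do not hold the E2F letters, and that of Mcm7 does. The windows of Cdc6 (chr11:98907901-98908200, plus strand), Mcm3 (chr1:20820263-20820562, minus strand) and Uhrf1 (chr17:56303087-56303386, plus strand), 3 of the genes with large losses described above, are shown because they hold the E2F letters, in capitals on either strand.
Cdc6: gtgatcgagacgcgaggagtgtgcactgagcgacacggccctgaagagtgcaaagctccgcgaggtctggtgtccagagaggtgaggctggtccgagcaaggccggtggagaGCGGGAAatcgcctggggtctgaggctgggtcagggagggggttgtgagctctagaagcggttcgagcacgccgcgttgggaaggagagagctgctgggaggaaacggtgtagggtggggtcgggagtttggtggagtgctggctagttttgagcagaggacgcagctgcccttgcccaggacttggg
Mcm3: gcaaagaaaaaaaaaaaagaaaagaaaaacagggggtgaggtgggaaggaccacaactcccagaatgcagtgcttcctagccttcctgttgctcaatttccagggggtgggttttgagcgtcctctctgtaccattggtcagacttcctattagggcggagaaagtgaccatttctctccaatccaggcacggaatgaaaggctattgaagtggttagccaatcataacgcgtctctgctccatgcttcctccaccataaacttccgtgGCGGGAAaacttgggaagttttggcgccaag
Uhrf1: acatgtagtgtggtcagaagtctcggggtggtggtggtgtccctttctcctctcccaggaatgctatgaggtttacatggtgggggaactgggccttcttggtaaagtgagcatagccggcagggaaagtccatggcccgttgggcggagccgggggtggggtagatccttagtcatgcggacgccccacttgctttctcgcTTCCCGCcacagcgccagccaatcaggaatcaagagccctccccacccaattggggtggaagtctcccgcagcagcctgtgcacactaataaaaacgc

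Genes of G2 and mitosis were less affected at this time. Of 32 tested, 10 fell and 0 rose, with a median of -0.59. The count was 5 without FGF-only replicate 2 or U0126-treated replicate 1 and 2 without the block. Ccna2 (cyclin A2) had 229 and 234 in U0126-treated cells against 473 and 534 in FGF-only cells (-1.07 ± 0.19, limma adjusted p = 7.3e-04). Cks2, a subunit of cyclin-dependent kinases, had 1443 and 1396 against 2758 and 2711 (-0.94 ± 0.13). Cdk1, the mitotic kinase, differed by -0.97 ± 0.16 and Mad2l1, of the spindle checkpoint, by -0.85 ± 0.15. Their adjusted p-values were 0.0527 and 0.23 without the block.

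Some genes that restrain growth or mark stress were higher in U0126-treated cells, 9 of 30 antiproliferative genes rising and 2 falling. Those that fell were Cebpd (-0.90) and Pdcd4 (-0.76). Without the block 6 members of the list rose and 2 fell, and without U0126-treated replicate 2, 5 fell. Gadd45a, a growth-arrest gene, had 4076 and 3836 in U0126-treated cells, 769 and 549.5 in FGF-only cells and 2419, 1901 and 1941 in quiescent cells. The U0126-treated level was 5.98-fold above that of FGF-only cells (2.58 ± 0.16, limma adjusted p = 5.0e-09). Trp53inp1, a stress protein induced by p53, had 1918 and 2370.5 against 542 and 654 (1.82 ± 0.14). Gadd45b had 1025 and 1130.5 against 346 and 416 (1.47 ± 0.13), and Ndrg1, which responds to hypoxia and differentiation, had 5806 and 7881 against 2122 and 2867 (1.45 ± 0.11). In each of these 4 genes both U0126-treated arrays stood above both FGF-only arrays, which the choice of called genes favours.

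The cyclin-dependent kinase inhibitors and TOB/BTG genes gave smaller and less secure differences. Cdkn1a (p21) differed by 0.92 ± 0.12, with an adjusted p of 0.0502 without the block. Cdkn1b (p27) differed by 0.76 ± 0.21, and by 0.33 with an adjusted p of 0.429 without U0126-treated replicate 2. It also lost its call without FGF-only replicate 1 (adjusted p 0.124) or replicate 2 (adjusted p 0.0681). Tob1 differed by 0.99 ± 0.13 and Btg2 by 0.80 ± 0.15, and neither passed with its probe set of highest variance (adjusted p 0.121 and 0.0954). Of 15 p53 targets, 7 rose and 0 fell. The count of rises was 6 without the block and 5 without U0126-treated replicate 2. The 7 included Plk2, a polo-like kinase, with 11218 and 11587 in U0126-treated cells against 4366 and 5328 in FGF-only cells (1.24 ± 0.12). Mdm2, a classic target of p53, had a difference of -0.16 that did not pass (adjusted p = 0.436).

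**Figure D3:**
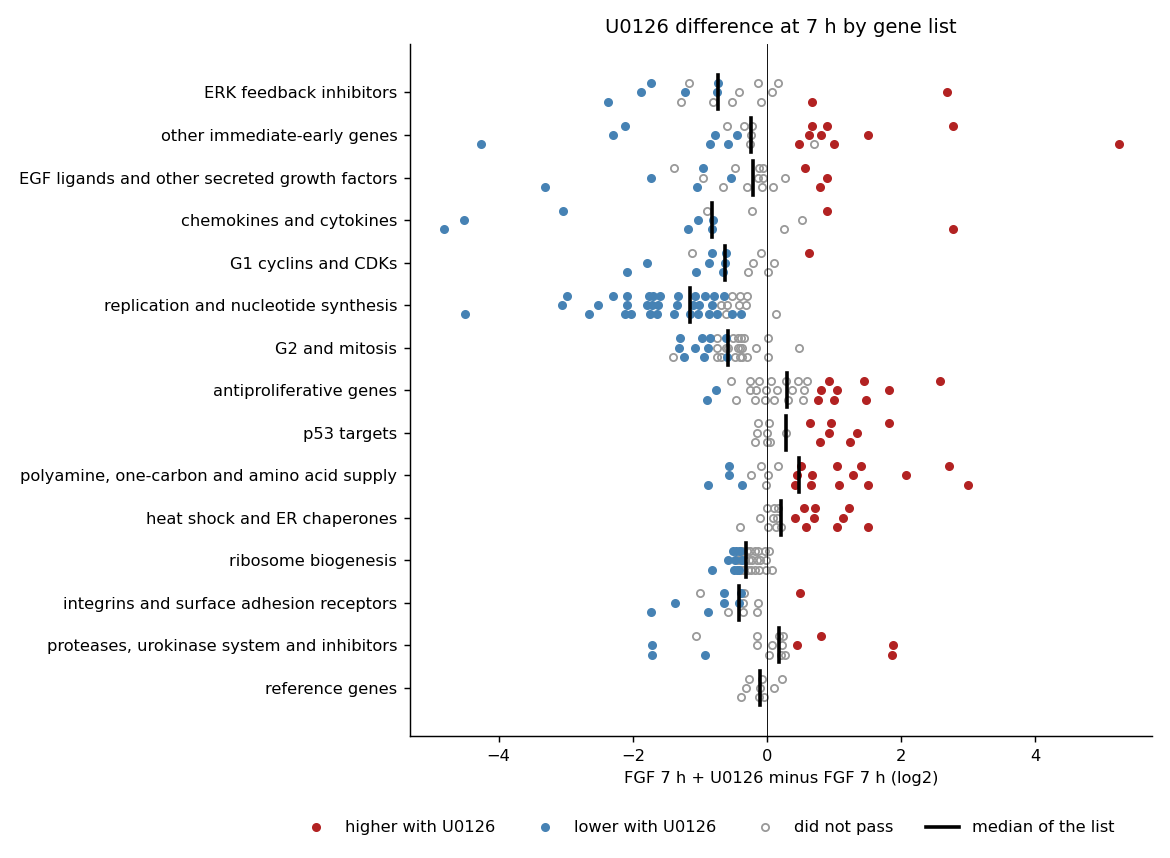
Log2 difference between U0126-treated and FGF-only cells for the tested members of 15 gene lists (x axis, on the log2(signal + 13.6) scale), with 1 band per list. Points are genes, filled in colour where called higher or lower and open otherwise, and the tick in each band is the list median. The replication genes lie left of 0 apart from Rpa1, with a median of -1.15, and the list on amino acid supply has a median of 0.48.

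Most genes of the list on amino acid supply, which holds genes of the ATF4 stress response, were higher in U0126-treated cells. Of 22 genes of polyamine, one-carbon and amino acid supply, 13 rose and 4 fell. The count of rises was 11 without the block and with any 1 of the 4 arrays left out, and the count of falls was 1 to 3. Ddit3 (CHOP), a transcription factor induced by ATF4, had 7504 and 5706 in U0126-treated cells, 834 and 784 in FGF-only cells and 1646, 1499 and 1412 in quiescent cells (3.0 ± 0.17, limma adjusted p = 1.5e-09). Trib3, a pseudokinase induced by ATF4 and CHOP, had 3185 and 3092 against 438 and 504 (2.71 ± 0.20). Chac1, which degrades glutathione, had 2281 and 2934 against 492 and 751 (2.06 ± 0.19). These stress genes were high on both U0126-treated arrays. Slc7a11, the cystine transporter, had 1149.9 and 809.5 in U0126-treated cells, 386 and 287 in FGF-only cells and 109.7, 118 and 112 in quiescent cells (1.50 ± 0.22). Slc3a2, the heavy chain it pairs with, had 13712 and 11877 against 4938 and 5551 (1.28 ± 0.12). The 4 members that fell were Shmt1 (-0.87), Smox (-0.57), Mthfd1 (-0.57) and Odc1 (-0.38). They encode 2 enzymes of one-carbon metabolism and 2 of polyamine metabolism.

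The amino acid response core TGATGCA, read on both strands and added after the values of these genes had been seen, stood in 3 of 19 windows of this list (15.8%). Its share was 3.24% among genes called higher, 1.87% among those called lower and 2.15% among all, and its letters differ from the AP-1 site TGANTCA. The RefSeq windows of Chac1 (chr2:119350992-119351291, plus strand), Slc7a11 (chr3:50443564-50443863, minus strand) and Atf3 (chr1:191183284-191183583, minus strand), on GRCm38.p6, are shown because these 3 genes rose with the stress genes and hold the letters, which are in capitals on either strand. Atf3 is an AP-1 gene from outside this list, whose other window with the letters is that of Slc1a4, an amino acid transporter. The windows of Ddit3 and Trib3 do not hold them.
Chac1: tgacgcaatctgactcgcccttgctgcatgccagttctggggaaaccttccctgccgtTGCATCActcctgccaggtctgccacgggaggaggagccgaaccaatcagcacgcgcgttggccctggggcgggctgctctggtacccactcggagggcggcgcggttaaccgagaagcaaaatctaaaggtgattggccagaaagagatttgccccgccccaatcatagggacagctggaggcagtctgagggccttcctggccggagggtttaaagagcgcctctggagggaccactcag
Slc7a11: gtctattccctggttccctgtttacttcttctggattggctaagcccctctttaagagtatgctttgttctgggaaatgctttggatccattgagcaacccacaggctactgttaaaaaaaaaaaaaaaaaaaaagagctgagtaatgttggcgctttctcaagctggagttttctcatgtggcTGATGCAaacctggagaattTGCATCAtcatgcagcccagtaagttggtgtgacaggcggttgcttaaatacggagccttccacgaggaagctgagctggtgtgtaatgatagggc
Atf3: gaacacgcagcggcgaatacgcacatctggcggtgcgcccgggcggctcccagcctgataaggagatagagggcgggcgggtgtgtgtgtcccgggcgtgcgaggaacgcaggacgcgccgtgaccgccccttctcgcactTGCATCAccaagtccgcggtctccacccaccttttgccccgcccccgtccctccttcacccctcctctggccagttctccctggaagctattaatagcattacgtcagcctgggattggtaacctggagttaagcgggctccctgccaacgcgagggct

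Several chaperone genes of the endoplasmic reticulum were also higher. Of 19 heat shock and ER chaperone genes, 9 rose and 0 fell. The count of rises was 6 without the block and 6 without FGF-only replicate 2. Herpud1, of ER-associated degradation, had 13610.2 and 9443 in U0126-treated cells against 4225 and 3781 in FGF-only cells (1.50 ± 0.12, limma adjusted p = 6.6e-08). Sdf2l1, an ER-resident stress protein, had 8119 and 7179.9 against 3449 and 3094 (1.22 ± 0.14). Dnajb9, a co-chaperone of BiP, had 4982 and 3563 against 2534 and 1441 (1.13 ± 0.14), and Creld2 had 9305 and 6574 against 4091 and 3504 (1.04 ± 0.15). Hspa5 (BiP) itself missed the limit, with a difference of 0.15 and an adjusted p of 0.587.

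Other growth programmes gave smaller or fewer differences. Of 34 ribosome biogenesis genes, 10 fell and 0 rose, with a median of -0.31. That count rested on single arrays, being 4 without FGF-only replicate 1, 2 without FGF-only replicate 2, 17 without U0126-treated replicate 1 and 1 without U0126-treated replicate 2, and it was 2 without the block. Fbl (fibrillarin), which methylates ribosomal RNA, had 4807 and 4702 in U0126-treated cells against 6999 and 7184 in FGF-only cells (-0.58 ± 0.11). Of 23 genes of cholesterol and fatty acid synthesis, 2 rose and 3 fell, with 1 falling without FGF-only replicate 2 and 5 without FGF-only replicate 1. Over all genes tested, 6.26% rose and 6.3% fell, so these few calls are not read as a result about the list. Dhcr7, the last enzyme of cholesterol synthesis, had 618 and 504 against 1575 and 1456 (-1.42 ± 0.15), and Pmvk, of the mevalonate pathway, had 939 and 807 against 542 and 484 (0.75 ± 0.14). Of 15 glycolysis genes, Hk2 (hexokinase 2) alone passed, with 3632 and 3035 against 1904 and 1772 (0.85 ± 0.15). None of 9 common control genes passed, among them Actb (-0.27) and Tbp (0.10).

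Among adhesion receptors and matrix proteins more genes fell than rose. Of all genes tested, 6.3% fell and 6.26% rose. Of 15 integrins and surface adhesion receptors, 7 fell and 1 rose (Ncam1, 0.49, not called without the block or without FGF-only replicate 1, FGF-only replicate 2 or U0126-treated replicate 2). The count of falls was 5 without the block and 5 without FGF-only replicate 1. Vcam1, which binds leukocyte integrins, had 255 and 248 in U0126-treated cells against 847 and 882 in FGF-only cells (-1.73 ± 0.17), and Itgb3, the β3 integrin, had 172 and 213 against 450.5 and 590.5 (-1.37 ± 0.20). Of 29 collagens and matrix proteins, 5 fell and 2 rose, and 2 fell and 1 rose without the block. With any 1 of the 4 arrays left out, 2 or 3 fell and 1 rose. Mgp (matrix Gla protein), an inhibitor of calcification, had 108 and 111 in U0126-treated cells, 969.8 and 959 in FGF-only cells and 183, 269.6 and 291 in quiescent cells (-3.0 ± 0.19, limma adjusted p = 6.6e-09). Ccn2 (CTGF) had 307 and 540.3 against 2104 and 2575 (-2.47 ± 0.25), and its relative Ccn5 moved the other way with 1602 and 1774 against 353 and 376 (2.17 ± 0.17).

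Of 11 collagen genes in that list, 2 fell, Col4a1 (-0.39) and Col6a3 (-0.42), and neither passed without the block. The fibrillar collagens Col1a1 (-0.25) and Col3a1 (-0.06) did not pass. Of 17 proteases, urokinase-system genes and inhibitors, 4 rose and 3 fell, against 6.26% and 6.3% of all genes. Mmp14, the membrane-type collagenase, had 9232 and 9384 in U0126-treated cells against 2428 and 2659 in FGF-only cells (1.87 ± 0.12), and Mmp11 had 746 and 1028 against 224 and 235 (1.87 ± 0.23). Timp1, of the metalloprotease inhibitor family, had 3432 and 3615 against 10499 and 12859.9 (-1.72 ± 0.12). Mmp14 and Mmp11 were thus higher and Timp1 lower on both U0126-treated arrays. Plat (tissue plasminogen activator), a serine protease, was lower by the test, with a difference of -1.72 ± 0.16, but its probe set of highest variance gave 0.019 with an adjusted p of 0.992. Of 20 actin and SRF target genes, 4 fell (2 without the block), Actn1 (α-actinin) with 2693 and 3729 against 6214 and 7999 (-1.15 ± 0.10) and Filip1l with 1144 and 1059.9 against 2338 and 2103 (-1.0 ± 0.12). The other pair, Vcl (-0.52) and Tagln (-0.95), lost their calls without the block. Tagln also lost its call with quantile normalization (limma adjusted p = 0.0584), with an offset of 1 and with no filter. With 1 of the 4 arrays left out its difference ran from -0.75 to -1.14.

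Several of the largest changes lay outside the lists above. Of 7 chromatin and RNA-binding growth genes, 2 fell, Hmga2 and Dnmt1. Hmga2, a chromatin protein of growing and embryonic cells, had 1457 and 877 in U0126-treated cells, 11638 and 11973 in FGF-only cells and 587, 1248 and 959 in quiescent cells (-3.37 ± 0.25, limma adjusted p = 3.6e-08). Gpr149, an orphan receptor, had 114 and 165 against 1389.7 and 1252 (-3.14 ± 0.27). Sema7a, a membrane-anchored semaphorin, had 66 and 94.9 against 624 and 554 (-2.69 ± 0.39). The remaining large falls were Pdzd2, a PDZ-domain protein, at -3.02 and Prkg2, a cGMP-dependent kinase, at -2.77.

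Among the rises, Car6, a secreted carbonic anhydrase, had 4307 and 5091 in U0126-treated cells against 277 and 585 in FGF-only cells (3.49 ± 0.19, limma adjusted p = 1.5e-09). Mef2c, a transcription factor of muscle and neurons, had 1607 and 1606 against 214 and 225 (2.80 ± 0.20). Hbb-bh1, an embryonic β-like globin, had 523 and 423 against 72.2 and 42.4 (2.80 ± 0.27), and its probes may also read other globin genes. These genes were high on both U0126-treated arrays. Fibin differed by 2.95, Angptl6, an angiopoietin-like protein, by 2.59, Adgrd1, an adhesion receptor, by 2.64 and Arhgap27, a GTPase activator, by 2.72. The FGF-only means of Adgrd1 and Arhgap27 lay below 45.2. Krt14, an epithelial keratin, had 1774 and 2051 against 649 and 848 (1.35 ± 0.13) and was the 1 of 8 epithelial markers that passed. Lpl (lipoprotein lipase) had 22020 and 16981 against 8622 and 8751 (1.15 ± 0.15), while Fabp4, another adipocyte gene, was at 14.5 and 11.9 in U0126-treated cells.

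U0126-treated cells were also set against quiescent cells, the state before FGF was added. They differed in 2782 genes (18.6%), 1157 higher (7.72%) and 1625 lower (10.8%). FGF-only cells differed from quiescent cells in 3250 genes (21.7%), 1374 higher (9.16%) and 1876 lower (12.5%). Both comparisons use the same quiescent arrays, so only their own values are set side by side, and time and FGF cannot be told apart in either. With scaling to the 75th percentile, the U0126-treated split was 1406 higher and 1280 lower, and the FGF-only split was 1607 and 1533. Without the quiescent array of experiment 2 the counts were 1467 and 1953. Without the first replicate of the 7 h group they were 1544 for U0126-treated and 2156 for FGF-only cells, and without the block 1360 and 1898.

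Of the 43 replication genes, 17 were lower in U0126-treated than in quiescent cells (10 without the block), 0 were higher and 26 did not pass, with a median of -0.40. In FGF-only cells 30 of the 43 were higher than in quiescent cells (21 without the block), with a median of 0.77. Most ribosome biogenesis genes were above the quiescent level in both, with 23 of 34 higher in U0126-treated cells and 29 of 34 in FGF-only cells. Cholesterol and fatty acid synthesis showed a like pair of counts, with 12 of 23 higher in U0126-treated cells and 14 of 23 in FGF-only cells. Amino acid supply was higher than in quiescent cells in 18 of 22 genes with U0126 and in 11 of 22 with FGF alone, and chaperones in 16 and 9 of 19. Of 30 antiproliferative genes, 11 were lower and 5 higher than in quiescent cells with U0126 (median -0.16). With FGF alone 20 were lower and 1 higher (median -0.83).

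Single genes lay far from the quiescent level in one or both 7 h groups. Egr1 was -6.0 ± 0.21 against quiescent cells in U0126-treated cells and -1.74 ± 0.21 in FGF-only cells. Fos was -2.83 ± 0.36 in U0126-treated and -2.57 ± 0.36 in FGF-only cells against the same quiescent arrays. Txnip, which restrains glucose uptake, was -3.14 ± 0.20 and -2.60 ± 0.20 in these comparisons, so it was low in both groups. Dbp, a clock output factor, was -2.72 ± 0.27 in U0126-treated and -3.51 ± 0.27 in FGF-only cells. Cyp26b1, which degrades retinoic acid, was -2.96 ± 0.21 in U0126-treated cells and -2.34 ± 0.21 in FGF-only cells. Ptgs2 was above the quiescent level in both, by 2.68 ± 0.19 in U0126-treated and 1.79 ± 0.19 in FGF-only cells. Nr4a3 was 4.09 ± 0.46 above quiescent cells in U0126-treated cells, whereas FGF-only cells differed from quiescent cells by -1.15 ± 0.46 (adjusted p = 0.0873). Tnfrsf21, a death-domain receptor, was 2.63 ± 0.29 in U0126-treated and 2.14 ± 0.29 in FGF-only cells.

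**Figure D4:**
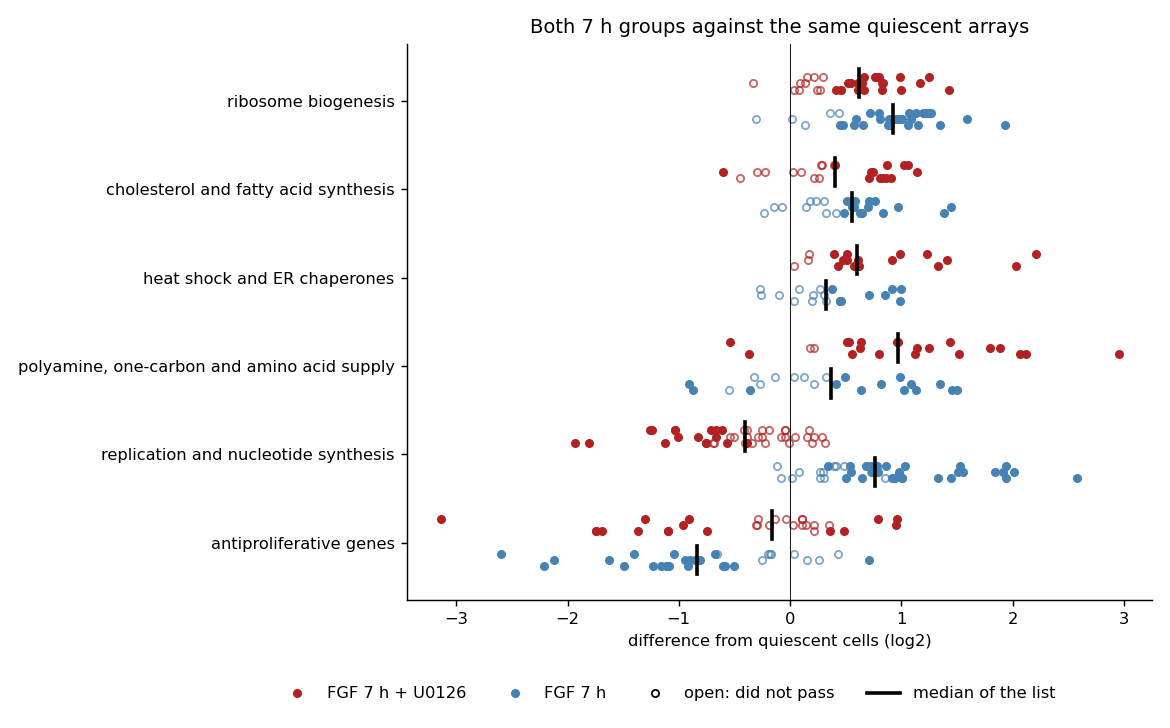
Log2 difference from quiescent cells at 7 h (x axis, on the log2(signal + 13.6) scale) for the tested members of 6 gene lists, in U0126-treated cells (red, upper band of each list) and FGF-only cells (blue, lower band). Each point is a gene, filled where it passed the test, black ticks are list medians, and both groups are set against the same quiescent arrays. The median of the replication list is -0.40 in U0126-treated cells and 0.77 in FGF-only cells.

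The U0126 effect at 7 h was compared with that at 4 h and at 12 h, which come from other arrays of the same experiments. The effect at 7 h minus that at 4 h passed for 30 genes (0.2%), 6 with a higher value (0.04%) and 24 with a lower one (0.16%). Of the 24, 9 were replication genes. Mcm5 had a U0126 effect of -0.95 ± 0.16 at 4 h and -3.06 ± 0.16 at 7 h, and the difference of the effects was -2.11 ± 0.23 (limma adjusted p = 4.6e-04). Mcm6 had -0.46 at 4 h and -2.51 at 7 h, a difference of -2.06 ± 0.26. Ccl2 had -3.02 at 4 h and -4.82 at 7 h, a difference of -1.80 ± 0.28. The U0126 effects on Mcm5, Mcm6 and Ccl2 were thus further below 0 at 7 h. Arhgap27 went the other way with -0.20 at 4 h and 2.72 at 7 h. These counts were small and unstable. Without the block 2 genes passed with a higher value and 0 with a lower one. The 9 replication genes and Ccl2 were thus not called without it. Without the variance trend 1 gene passed.

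The effect at 7 h minus that at 12 h passed for 210 genes (1.4%), 156 with a higher value at 7 h (1.04%) and 54 with a lower one (0.36%). Among replication and mitotic genes, the U0126 effect was further below 0 at 12 h. The U0126 effect passed for 13% of all genes at 4 h (6.94% higher, 6.03% lower) and for 20.6% at 12 h (11.6% higher, 9.08% lower). Of 43 replication genes, 15 fell at 4 h, 34 at 7 h and 43 at 12 h, and 23 differed between 7 and 12 h. Without the block these counts were 7, 28, 42 and 2. Of 32 genes of G2 and mitosis, 4, 10 and 30 fell at 4, 7 and 12 h, and 9 differed between 7 and 12 h, against 1, 2, 26 and 1 without the block. Cdk1 had a U0126 effect of -0.33 at 4 h, -0.97 at 7 h and -2.27 at 12 h, the last difference being 1.31 ± 0.23 (limma adjusted p = 0.00542). Tk1 had -0.90, -2.12 and -5.03 at the same times. E2f8, an E2F repressor, had -2.20, -2.28 and -5.06. The U0126 effect on Cdk1, Tk1 and E2f8 was thus further below 0 at 12 h than at 7 h. Each effect is a difference from FGF-only cells of the same time, so a change in either group can move it.

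Other genes had a lower effect at 7 h than at 12 h. Itgb3 had -2.18 at 4 h, -1.37 at 7 h and 0.21 at 12 h, with a difference between 7 and 12 h of -1.58 ± 0.28. Tgfb3, a TGF-β ligand, had -0.69, -0.01 and 1.48. Aldh1a1, a retinaldehyde dehydrogenase, had 0.18, 0.95 and 3.64. Without the block 14 genes differed between 7 and 12 h. Of the 7 h arrays, leaving out FGF-only replicate 1 gave 120 genes and U0126-treated replicate 1 gave 138. Of the 12 h arrays, the counts were 117 without FGF-only replicate 1 or 2, 121 without U0126-treated replicate 1 and 136 without replicate 2. Etv5 and Dusp6 were lower with U0126 at each of these times, Etv5 at -2.66, -2.85 and -3.15 and Dusp6 at -2.74, -2.37 and -2.14 at 4, 7 and 12 h.

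**Figure D5:**
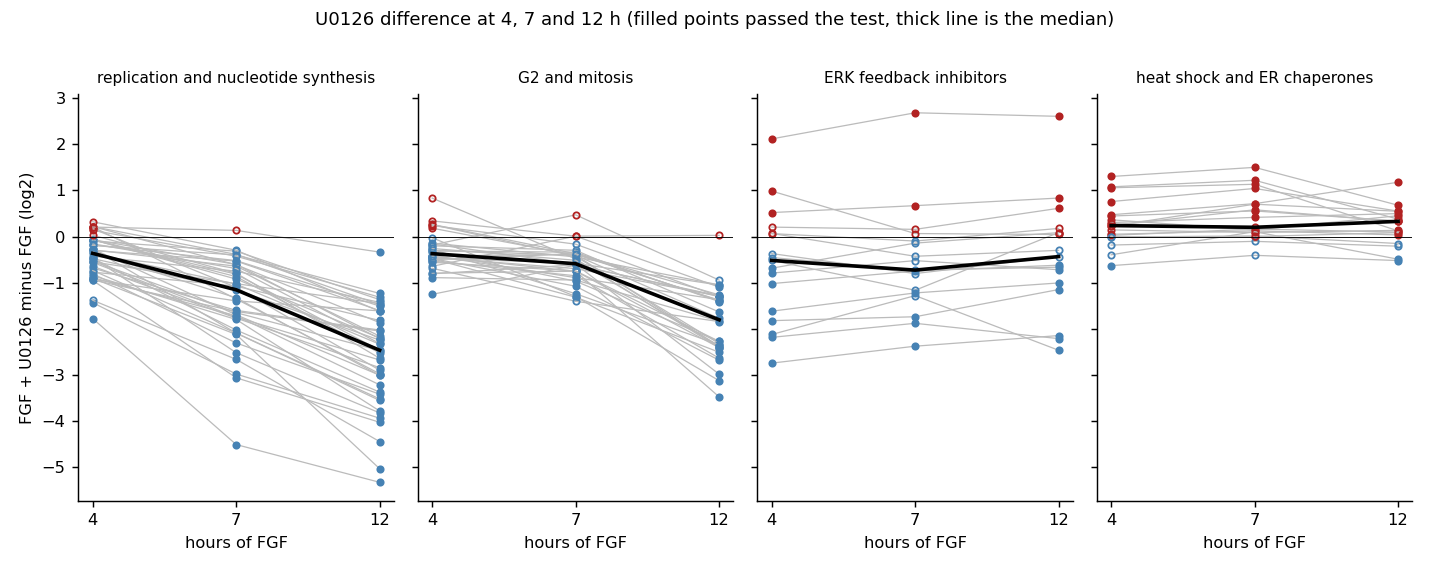
U0126 effect (log2 difference between cells with and without U0126 under FGF, y axis) at 4, 7 and 12 h of FGF (x axis) for the tested members of 4 gene lists. Points joined by a grey line are 1 gene, filled where it passed the test at that time, red where the difference is above 0 and blue where it is below, and the black line is the list median. The medians of the replication list are -0.36, -1.15 and -2.46 at 4, 7 and 12 h.

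A single array of experiment 1 held cells that received FGF for 7 h and U0126 from 1 h onwards. Against FGF-only cells, 1126 genes (7.51%) differed, 526 higher (3.51%) and 600 lower (4%), and 539 without the block. This comparison shares the FGF-only arrays with the one above. Its spread was taken from the other groups, as it stands alone. U0126 from -0.5 h and U0126 from 1 h differed in 4 genes (0.0267%) by limma, 3 lower (0.02%) and 1 higher (0.00667%) with the early addition. The gene that was higher was Denn2b (1.96), whose late signal of 15.8 lay near the offset of 13.6. At an unadjusted p under 0.05 there were 747. Egr1 had 73.9 and 81.3 with U0126 from -0.5 h against 296 with U0126 from 1 h (-1.94 ± 0.27, adjusted p = 0.0161). Mgp had 108 and 111 against 345 (-1.53 ± 0.23), and Timp1 had 3432 and 3615 against 6417 (-0.91 ± 0.15). No gene passed without the block, and none passed when any 1 of the arrays of the early addition was left out. The values with late U0126 were 143 for Ccl2, 45.8 for Cdc6, 953 for Ereg and 822 for Nr4a3. FGF-only levels of these genes are given above. All 4 genes thus lay on the U0126 side of the FGF-only arrays after an addition at 1 h.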

How the data were processed

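RNA from NIH3T3 cells was hybridised to 1 Affymetrix mouse expression array per sample. The deposited values are signal intensities made with MAS5, per the submitters' processing notes. As the values show, each array had been scaled to a mean of 500 over all but the top and bottom 2% of probe sets. Neither the MAS5 version nor presence calls are given in the sources used here. The array held 45101 probe sets, of which 64 were controls, 34945 had 1 gene in the platform annotation, 932 several and 9160 none. Those without a single gene were left out, and 204 symbols absent from the mouse gene table were kept as given. Samples were grouped by their labels.

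The offset of 13.6 added before taking log2 is the 20th percentile over the 19 arrays. Probe sets above their array's 40th percentile on at least 2 arrays were kept, and the probe set of highest mean stood for each gene. In 7 genes other probe sets passed in opposite directions. All 11 groups were fitted with limma 3.58.1 (R 4.3.3; eBayes with a variance trend), with the experiment number as a block, and tests were two-sided with Benjamini-Hochberg adjustment over 14996 genes at a limit of 0.05. The comparison was defined as paired by experiment number and the labels number the experiments, so the numbers were taken as pairs. The deviations of same-numbered arrays correlated weakly in each of 21 pairs of groups (r from 0.124 to 0.304). What produced that correlation was not tested. In data simulated for the U0126 effect at 7 h over 14996 genes, the fit called 47.5% of 2-fold and 80% of 4-fold changes. It made 4 and 7 false calls there, and 0 where nothing was changed. The simulated noise was independent between arrays and the fitted experiment effect was built in. The simulation therefore cannot show whether the block suits these arrays.

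The members, the 34 gene lists and the tests were chosen with earlier results of these data known. Genes named were the 15 largest called changes each way, up to 4 members per list, 20 fixed genes, the 6 largest called differences each way between times and the 8 largest each way against quiescent cells. Apart from the fixed genes, both experiments had to move the same way and the higher group's mean had to exceed 74.0, the median of all values. Members that complete a count of 5 or fewer, or that stand for a list without passing, were named after their values were seen. Alternatives changed the model (no block, no variance trend, the compared groups alone, each replicate left out, quiescent arrays kept as 3), the scale (quantiles, 75th percentile), the offset (1 or 45.2), the filter (none, or the median on 4 arrays) and the probe sets (all, or that of highest variance per gene). Promoters came from RefSeq windows on GRCm38.p6. Figures were drawn with matplotlib 3.10.9.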

Additional observations from a re-analysis of the deposited data

Results flagged for a closer look

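In 16 named genes the effect of U0126 at 7 h differed from that at 4 h by limma's test of the difference (7 h minus 4 h, log2). The lower values belonged to genes of DNA replication or repair and to Ccl2. The differences were -2.11 for Mcm5, -2.06 for Mcm6, -1.50 for Mcm3, -1.19 for Mcm4 and -1.12 for Mcm7, the helicase subunits. They were -1.82 for Gins1, -2.59 for Dscc1, which takes part in clamp loading, -1.55 for Uhrf1, -1.66 for Brca2, of homologous recombination, and -1.80 for Ccl2. Values were higher for Arhgap27 (2.92), Myzap (2.25), Serpinb1a, a protease inhibitor (1.70), Tenm4, a teneurin (1.56), Gbe1, the glycogen branching enzyme (1.43) and Fam20c, a kinase of secreted proteins (1.19). With U0126 at 7 h Myzap was 1.1-fold higher and Fam20c 1.31-fold lower, whereas at 4 h they were 4.32-fold and 2.99-fold lower. Without the block 2 of the 16 passed, and 0 of those with lower values did.

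In 33 named genes the effect at 7 h differed from that at 12 h (7 h minus 12 h, log2). Most of the higher values belonged to genes of S phase and mitosis, whose U0126 effect was lower at 12 h. Ska1 was 1.03-fold higher with U0126 at 7 h and 6.58-fold lower at 12 h, so it had no loss at 7 h. The G1 and S regulators were Ccne1 (2.23), Ccne2 (2.38), Rbl1 (1.12), E2f8 (2.78) and Tk1 (2.91). The helicase subunits were Mcm3 (1.11), Mcm4 (0.93), Mcm5 (0.96), Mcm6 (1.30) and Mcm7 (1.07), and with them stood Dscc1 (1.85) and Dnmt1 (1.07). Of mitotic genes, Ccna2 had 1.60, Cdk1 1.31, Cks2 0.89, Mad2l1 1.78, Kntc1, of the kinetochore, 3.23, Ska1, also of the kinetochore, 2.76 and Esco2, which secures sister chromatids, 2.98.

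Other values belonged to genes outside the cell cycle. The chaperone genes were Dnajb9 (1.01), Herpud1 (0.82) and Sdf2l1 (0.84), and Pmvk had 0.93 and Arhgap27 3.17. Lower values at 7 h than at 12 h were those of Aldh1a1 (-2.69), Cdsn, a skin adhesion protein (-1.87), Itgb3 (-1.58), Gm15867 (-1.54), Tgfb3 (-1.48), Plat (-1.30), Ccn5 (-1.23), Pik3ip1 (-1.15) and Pdzd2 (-1.14). Without the block 2 of the 33 passed.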

How the results depend on the processing

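Without the replicate block, the counts were 913 for the U0126 effect at 7 h (all 913 among the 1882), 1360 for U0126-treated against quiescent cells, 1898 for FGF-only against quiescent cells, 2 for 7 h minus 4 h, 14 for 7 h minus 12 h, 0 for early against late U0126 (unadjusted p under 0.05 in 440 genes, by limma) and 539 for late U0126 against FGF-only cells. Without the variance trend they were 1112, 1697, 1, 32, 0 and 527 in the same order, FGF-only against quiescent cells aside. With all probe sets they were 2977, 4358 and 5016 for the first 3 and 1698 for the last. With the probe set of highest variance they were 1838 and 2158 against quiescent cells, 18 for 7 h minus 4 h and 120 for 7 h minus 12 h. A fit of the compared groups alone, with the replicate block, gave 2825 for the U0126 effect at 7 h. It was not run for the arm with late U0126, which leaves no residual degrees of freedom. Early against late U0126 gave 0 also with no filter and with 3 separate quiescent arrays. Leaving out 1 replicate gave 1153 to 1468 for the U0126 effect, 1467 to 3155 and 1953 to 3453 against quiescent cells (U0126-treated and FGF-only), 9 to 31 and 117 to 180 for the differences from 4 and 12 h, 0 to 0 for early against late U0126 and 788 to 987 for late U0126 against FGF-only cells. Of 139 named genes that passed at 7 h, 98 passed under every alternative run and 25 lost their call without the block. Plat alone turned its sign, at 0.019 (adjusted p = 0.992) with its probe set of highest variance. The cause was not tested. Group sizes of 2 arrays and dim signals below 45.2 limit the precision.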

Other observations

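Some genes of the lysosome and of the circadian clock were higher in U0126-treated cells at 7 h. Of 15 lysosome and autophagy genes, 5 rose in U0126-treated cells and 0 fell, against 6.26% of all genes higher and 6.3% lower. Sqstm1 (p62), a receptor for autophagic cargo, had 11765 and 11867 in U0126-treated cells against 4992 and 6746 in FGF-only cells (1.02 ± 0.11), and Neu1, a lysosomal sialidase, had 427 and 337 against 223 and 172 (0.91 ± 0.17). Neither passed with its probe set of highest variance (adjusted p 0.194 and 0.96). The count was 2 without FGF-only replicate 1 and 3 without U0126-treated replicate 1. Of 16 clock genes, 4 rose and 0 fell. Nfil3, a repressor that opposes D-box activators, had 1984 and 1875 against 440.3 and 441 (2.10 ± 0.20, limma adjusted p = 1.1e-06). Without the block Nfil3 was the 1 that passed, and without U0126-treated replicate 2 the count was 2.

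Other lists changed in few members, where 6.26% of all genes rose and 6.3% fell. Of 12 interferon-response genes, Ifit3 had 551 and 424 in U0126-treated cells against 170.2 and 148 in FGF-only cells (1.53 ± 0.18), and Ifit2 differed by 0.48 and lost its call without the block. Of 14 FOXO targets, 3 rose and 1 fell, among them Cat (catalase) with 10174 and 8418 against 5801 and 5346 (0.73 ± 0.13), and without the block 1 rose. Of 21 genes of TGF-β, BMP and ID proteins, 4 fell and 1 rose. Id1, an inhibitor of differentiation factors, had 312 and 318 against 792 and 827 (-1.33 ± 0.18), and Ltbp2, a latent TGF-β binding protein, had 195 and 359.8 against 664 and 1053 (-1.61 ± 0.19), while Id3 was higher (1.02, not called without the block or without FGF-only replicate 1, FGF-only replicate 2 or U0126-treated replicate 2).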
